A study of Mus musculus with 2 samples.

Results

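The genes of 3 kinds of cell junction were examined in 2 RNA libraries: the claudins and their tight junction partners, the cadherins, and the desmosomal cadherins with their plaque proteins. Members were the rows of the count table named Cldn, Cdh, Dsg, Dsc, Tjp or Pkp with a number and at most 1 letter, together with Dsp, Jup, Ocln, Epcam, F11r, Cgn, Marveld2 and Marveld3. These were 68 of the 20003 genes in the table. The rule is by name and uses no level or ratio, but it was set with earlier results of these data known. The libraries were labelled RAW 264.7, a mouse macrophage line. For both, the protocols gave M-CSF at 20 ng/mL and IL-4, which drives alternative (M2) activation, at 10 ng/mL, and either agent was added 4 h before IL-4. The library labelled M2+GANT61 had GANT61, an inhibitor of the GLI transcription factors of Hedgehog signalling, at 10 µM. The library labelled M2+DMSO had the solvent. For the time with IL-4 the protocols disagree, with 15 min in one text and 24 h in the other. The comparison addressed how blocking Hedgehog signalling changes M2 macrophage transcripts.

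Each group was 1 library, so the differences have no replicate check and no p-value is given. Levels are CPM, read counts relative to the scaled library total, or the authors' RPKM, which also divides by gene length, where genes are compared with each other. In each pair of values the DMSO-labelled library comes first and the GANT61-labelled second. The ratio is the second level over the first, with a 95% interval that covers counting error only. A gene was called higher at a ratio of at least 1.5, or lower at most at its inverse, if the interval excluded 1 and the mean was at least 1 CPM. This rule compares 2 libraries, not the conditions.

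The libraries held 61632784 (DMSO) and 57705874 (GANT61) reads, and went against their cell type label. Defining markers of epithelium, endothelium, fibroblasts, adipocytes, smooth muscle, T cells and Schwann cells were present in both, with 0 of 52 such markers at 0 reads. At this depth 18730 and 18376 of all 20003 genes had reads, so a count above 0 says little by itself. By summed level, fibroblast markers were at 7490 and 8318 CPM, luminal epithelial at 2727 and 1947, and basal and stratified epithelial at 866 and 1594. Endothelial markers were at 524 and 462 CPM, smooth muscle and myoepithelial at 369 and 320, T cell at 151 and 165, and Schwann cell at 75.7 and 67.8. Macrophage markers summed to 2322 and 6536 CPM, and 8 of 8 were higher. Adipocyte markers summed to 4875 and 712 CPM, and 6 of 6 were lower. Which cells made the junction transcripts was not tested. In such bulk RNA, fewer cells of a type and less RNA per cell cannot be told apart.

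Tight junctions seal the gap between neighbouring epithelial or endothelial cells. Claudins form the sealing strands and set which ions pass, occludin and the other MARVEL proteins join the strands, and the zonula occludens proteins anchor them to actin. Adherens junctions are built on classical cadherins, whose tails bind catenins. Desmosomes join desmogleins and desmocollins through plakoglobin, plakophilins and desmoplakin to keratin filaments. In stratified epithelia such as skin, the members in use differ from those of simple epithelia such as gland ducts: Dsg3, Dsc3 and P-cadherin mark the lower layers and Dsg1 and Dsc1 the upper ones. Macrophages given IL-4 are known to express E-cadherin and some claudins, and desmosomes are typical of epithelium and heart muscle.

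Upstream sequences are shown for 4 claudins: the most abundant in these libraries (Cldn4), a higher one (Cldn1) and 2 lower ones (Cldn2 and Cldn5). Each run is the DNA just before the RefSeq gene start, 5′ to 3′ on the gene's strand, from the RefSeq promoter table (GRCm38.p6, the mm10 build), and Cldn1 is cut to 248 bases to leave off annotated exon. The windows are chr5:134946935-134947184 (minus strand) for Cldn4, chr16:26371842-26372089 (minus) for Cldn1, chrX:139800558-139800807 (plus) for Cldn2 and chr16:18776597-18776846 (plus) for Cldn5. Capitals mark 2 motifs: CAGGTG, or CACCTG on the other strand, the E-box bound by Snail and ZEB repressors, and TGANTCA, the AP-1 site.
Cldn4: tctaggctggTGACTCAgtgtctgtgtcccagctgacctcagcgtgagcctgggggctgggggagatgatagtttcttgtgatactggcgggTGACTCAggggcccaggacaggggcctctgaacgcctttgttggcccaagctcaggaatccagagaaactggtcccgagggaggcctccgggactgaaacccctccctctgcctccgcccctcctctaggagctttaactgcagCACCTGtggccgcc
Cldn1: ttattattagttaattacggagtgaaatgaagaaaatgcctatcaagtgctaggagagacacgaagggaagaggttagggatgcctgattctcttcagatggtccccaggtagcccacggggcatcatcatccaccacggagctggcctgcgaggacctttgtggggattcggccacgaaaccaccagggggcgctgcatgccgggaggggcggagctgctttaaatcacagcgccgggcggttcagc
Cldn2: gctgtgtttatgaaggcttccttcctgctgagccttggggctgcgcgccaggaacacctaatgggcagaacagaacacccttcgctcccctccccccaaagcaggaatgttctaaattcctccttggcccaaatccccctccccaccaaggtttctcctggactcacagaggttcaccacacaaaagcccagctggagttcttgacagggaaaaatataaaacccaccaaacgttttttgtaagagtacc
Cldn5: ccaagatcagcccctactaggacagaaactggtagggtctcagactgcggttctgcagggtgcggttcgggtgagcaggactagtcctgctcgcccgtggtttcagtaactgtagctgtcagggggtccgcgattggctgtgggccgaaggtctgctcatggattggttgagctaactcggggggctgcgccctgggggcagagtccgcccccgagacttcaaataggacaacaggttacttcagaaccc

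Cldn4 had 1 E-box, starting 14 bases before its start, and 2 AP-1 sites, at 240 and 158 bases. The other three windows held no match to any motif searched. The table held 41 of the 68 members, 24 of the 47 with a mean of at least 1 CPM, and 8 of the 20 called. The E-box was in 8 of those 24 (33.3%), among them Cldn4, Cldn7, Epcam, F11r and Ocln. It was in 19.4% of all 27025 genes in the table with any listed window of 250 bases. These genes, unlike the 24, were not chosen by level. Of the called members in the table, the E-box was in 0 of 2 higher and 1 of 6 lower. The AP-1 site was in 3 of the 24 (12.5%) and in 7.82% of all. The GLI site GACCACCCA and the Grainyhead-like site AACCGGTT were in 0 of the 24, and in 0.255% and 0.137% of all. Both strands were searched, the motifs do not contain each other, and a match is a description of letters and not a binding site.

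Of the 68 members, 47 had a mean of at least 1 CPM. By the rule, 10 were higher (21.3%), 10 were lower (21.3%) and 27 were neither. Of all 13939 genes that reached this level, 24.4% were called, 14.1% higher and 10.3% lower. The members' median log2 ratio was -0.14 and that of all genes was -0.01. The higher members were Cldn1, Cldn23, Cdh3, Cdh6, Cdh17, Dsg1a, Dsg1b, Dsg3, Dsc1 and Pkp1. The lower members were Cldn2, Cldn5, Cldn8, Cldn9, Cldn10, Cldn15, Ocln, Cdh24, Dsc2 and Dsg1c. Of 30 members with a mean of at least 10 CPM, 4 were higher and 3 lower. The share called among all genes was not computed at that level. At a mean of at least 5 CPM it was 20.1%, below the 24.4% at 1 CPM.

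**Figure D1:**
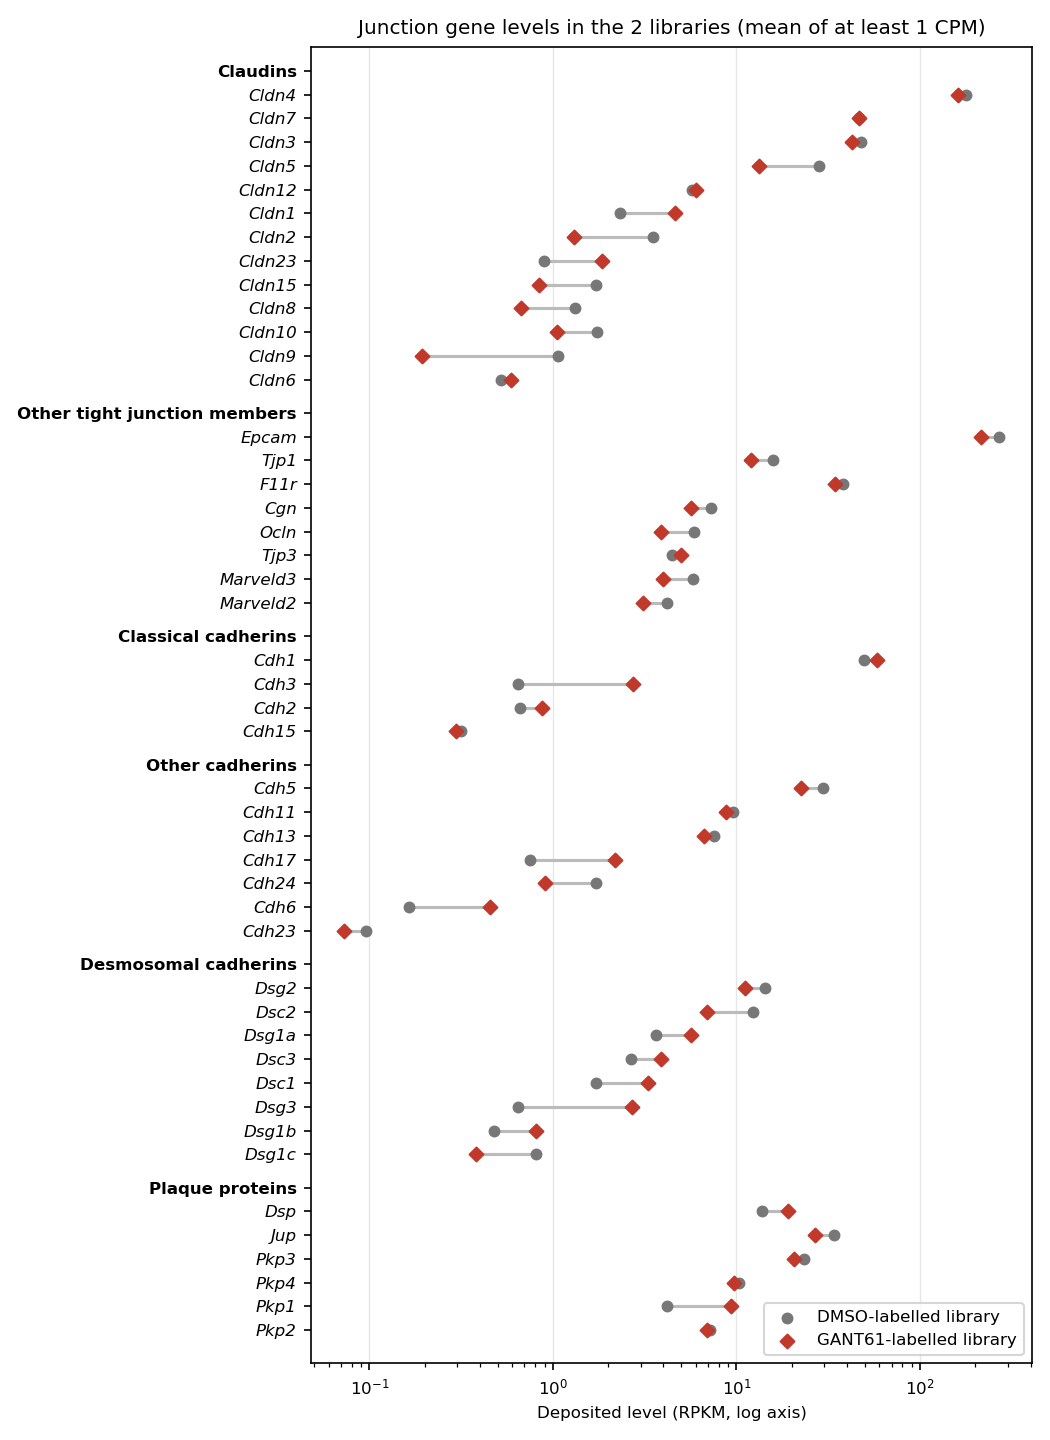
Deposited RPKM (log axis) of 46 junction genes that averaged 1 CPM or more, grouped by role, with a grey circle for the DMSO-labelled and a red diamond for the GANT61-labelled library. The most abundant members, Epcam and Cldn4, lie close together in the 2 libraries, while Cldn9, Cdh3 and Dsg3 are far apart.

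**Figure D2:**
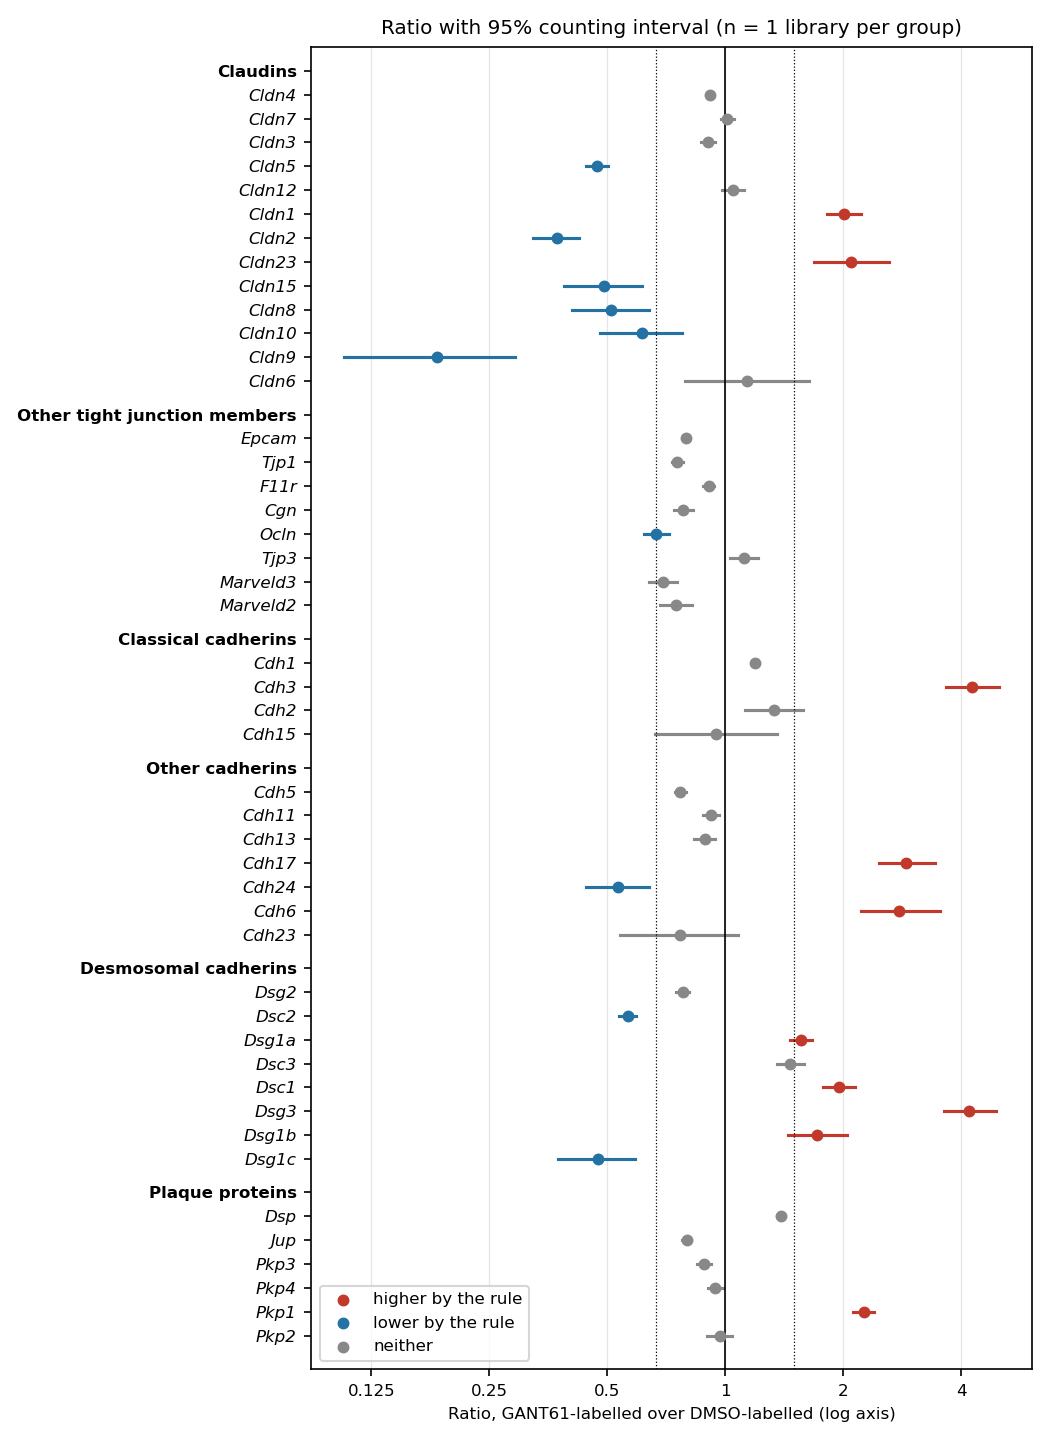
Ratio between the libraries, GANT61-labelled over DMSO-labelled (log axis), for the same 46 genes, with 95% counting intervals and 1 library per group. Dotted lines mark ratios of 1.5 and its inverse, and 10 members lie on each side by the rule.

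Cldn4, Cldn3 and Cldn7, sealing claudins of simple and glandular epithelium, were the abundant claudins and differed little between the libraries. Cldn4 was at 178 and 162 RPKM and made up 55.5% and 57.3% of the summed claudin RPKM. Its ratio was 0.914 (0.898 to 0.931). The gene sits on chromosome 5 at 134945119 to 134946934, 39.3 kb from Cldn3. Cldn3 measured 47.6 and 42.8 RPKM (ratio 0.904, 0.866 to 0.943). Cldn7, at 46.3 and 46.6 RPKM, had a ratio of 1.01 (0.972 to 1.05). The called claudins all lay below these in abundance. Cldn12, an unusual claudin that lacks the tail motif for zonula occludens proteins, was at 29.5 and 30.9 CPM.

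Of the 13 claudins with a mean of at least 1 CPM, 6 were lower in the GANT61-labelled library, 2 higher and 5 neither. Among all genes at this level, 10.3% were lower and 14.1% higher. The lower claudins were Cldn2, Cldn5, Cldn8, Cldn9, Cldn10 and Cldn15. With a mean of at least 5 CPM required, Cldn8, Cldn9, Cldn10, Cldn15 and the higher Cldn23 were not called, so the balance depends on the floor. Cldn5, the claudin of the blood-brain barrier, on chromosome 16 at 18776847 to 18778262, measured 50.3 and 23.7 CPM (ratio 0.471, 0.441 to 0.502). Beside it, 3 of 8 endothelial markers were lower and 0 higher, with a median log2 ratio of -0.40. Their summed level was 524 and 462 CPM, of which Pecam1, the one marker with a ratio above 1 (1.10, 1.07 to 1.13), made up 197 and 217 CPM. The part of endothelial content in the Cldn5 value was not tested.

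Cldn2, Cldn15 and Cldn10 were lower in the GANT61-labelled library. Cldn2, a channel for sodium and water on chromosome X at 139800828 to 139811386, measured 13.6 and 5.05 CPM (ratio 0.371, 0.323 to 0.424). Cldn15, a cation channel of the intestine, measured 4.03 and 1.97 CPM (ratio 0.491, 0.388 to 0.614). Cldn10, whose isoforms pass either cations or anions, measured 3.16 and 1.94 CPM (ratio 0.613, 0.480 to 0.776). Isoforms cannot be separated in counts per gene.

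Cldn8 and Cldn9 were the other lower claudins. Cldn8, a claudin of the distal nephron, measured 3.93 and 2.01 CPM (ratio 0.512, 0.405 to 0.640). Cldn9, known from the inner ear, had 122 and 20 reads, a ratio of 0.184 (0.107 to 0.291). It lies on chromosome 17 within 0.138 kb of Cldn6, a claudin of embryonic epithelium, which had 62 and 64 reads and a ratio of 1.14 (0.789 to 1.64). Of the members over the level of 1 CPM, Cldn9 had the smallest ratio, and its neighbour's interval included 1. Cldn9 was at 1.95 and 0.352 CPM and passed that level only through the DMSO-labelled library, so its rank depends on the floor. Its call was lost where a mean of at least 1 RPKM or 5 CPM was required, while its RPKM ratio was 0.187.

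The 2 higher claudins were Cldn1 and Cldn23. Cldn1, the claudin required for the water barrier of the epidermis, on chromosome 16 at 26356642 to 26371841, measured 9.49 and 19.1 CPM (ratio 2.01, 1.82 to 2.23). Cldn23 measured 2.08 and 4.35 CPM (ratio 2.09, 1.69 to 2.61). In the GANT61-labelled library Cldn1 was at 4.65 RPKM and Cldn4 at 162 RPKM. Cldn1 made up 0.726% and 1.65% of the summed claudin RPKM, and Cldn2 made up 1.10% and 0.461%.

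The remaining 9 claudins were under 1 CPM on average. Cldn22 had 86 and 12 reads, but its annotated exon lies wholly within an exon of Wwc2 on the opposite strand. Wwc2 was at 72.1 and 76.5 CPM, a ratio of 1.06. The strand setting of the counting is not given in the sources used here, so reads of these 2 genes may not have been told apart. Cldn20 had 0 reads in the DMSO-labelled and 6 in the GANT61-labelled library, and a count of 0 allows up to 3 reads. Over all 68 members, 9 had reads in 1 library only, with a largest count of 6. Of these, 6 had reads only in the DMSO-labelled and 3 only in the GANT61-labelled library. Cldn11, known from myelin and testis and named here after its values were seen, had 21 and 18 reads.

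Among the other tight junction members, 8 of 9 ratios were below 1, and 1 of the 9 was called. Epcam, an epithelial adhesion protein that binds and stabilises Cldn7, was the most abundant of all members by RPKM, at 270 and 214, and had a ratio of 0.795 (0.783 to 0.806). Ocln, occludin, measured 31.2 and 20.8 CPM (ratio 0.667, 0.619 to 0.717), at the threshold, and was called lower. It was no longer called with a prior count of 2 reads in place of 0.5. The related strand proteins Marveld3 and Marveld2, the latter known as tricellulin for its place where 3 cells meet, had ratios nearer to 1 and were not called. Marveld3 measured 23.4 and 16.2 CPM (ratio 0.693, 0.637 to 0.753), and Marveld2 had a ratio of 0.750 (0.683 to 0.823).

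Scaffold proteins under the strands had ratios within the threshold and were not called. Tjp1, the scaffold ZO-1, measured 143 and 108 CPM (ratio 0.753, 0.729 to 0.778). Cgn, cingulin, which links the strands to myosin, had a ratio of 0.782 (0.738 to 0.828). Tjp3, ZO-3, which is found in epithelium and little in endothelium, was at 18.8 and 20.98 CPM, with a ratio of 1.12 (1.03 to 1.21). F11r, the junctional adhesion molecule JAM-A, also found on leukocytes and platelets, measured 119 and 108 CPM (ratio 0.906, 0.876 to 0.937). Luminal epithelial markers stood beside these values with 3 of 8 lower, 0 higher and a summed level of 2727 and 1947 CPM, a ratio of 0.714. The part of luminal epithelial content in them was not tested.

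Among classical cadherins, P-cadherin was higher and E-cadherin differed little. Cdh1, E-cadherin, the main cadherin of epithelia, on chromosome 8 at 106603351 to 106670246, measured 275 and 328 CPM (ratio 1.19, 1.17 to 1.22). Cdh3, P-cadherin, of basal epithelial layers and the hair follicle, measured 3.28 and 14.0 CPM (ratio 4.26, 3.65 to 4.998), and had the largest ratio among the members over 1 CPM. These genes are neighbours, with 46.1 kb between them, and Cdh3 lies at 106510891 to 106557297. Of the summed RPKM of the pair, Cdh3 made up 1.29% in the DMSO-labelled and 4.46% in the GANT61-labelled library.

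Cdh2, N-cadherin, a cadherin of nerve, muscle and mesenchyme, measured 4.03 and 5.35 CPM (ratio 1.33, 1.12 to 1.58). Cdh15, M-cadherin of skeletal muscle, had 71 and 61 reads, and its ratio of 0.947 (0.661 to 1.35) did not differ from 1 beyond counting error. Cdh4, R-cadherin, was under 1 CPM. No classical cadherin was lower by the rule.

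The other cadherins were led by those of endothelium and stroma, and these were not called. Cdh5, VE-cadherin of endothelial adherens junctions, measured 148 and 114 CPM (ratio 0.767, 0.743 to 0.792), nearer to 1 than that of Cldn5. Cdh11, of mesenchymal cells and fibroblasts, measured 61.6 and 56.5 CPM (ratio 0.918, 0.876 to 0.962). Fibroblast markers beside it had 0 of 6 called. Cdh13, T-cadherin, a membrane-anchored cadherin without a cytoplasmic tail that binds adiponectin, had a ratio of 0.887 (0.834 to 0.943).

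Cdh17 and Cdh6 were higher and Cdh24 lower, all at under 10 CPM in either library. Cdh17, the liver-intestine cadherin, measured 3.28 and 9.502 CPM (ratio 2.90, 2.47 to 3.42). Cdh6, K-cadherin of the kidney, measured 1.69 and 4.72 CPM (ratio 2.78, 2.22 to 3.52). Cdh24, a type II cadherin, measured 5.90 and 3.13 CPM (ratio 0.532, 0.442 to 0.637). Cdh23, which forms the tip links of sensory hair cells, was at 1.36 and 1.04 CPM, and the interval of its ratio included 1. A further 10 of the 17 were under 1 CPM, among them Cdh22, with 13 and 37 reads and a ratio of 3.06 (1.63 to 6.43).

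Of the 8 desmosomal cadherins with a mean of at least 1 CPM, 4 were higher, 2 lower and 2 neither, beside 24.4% called among all genes. Without the near-identical copies Dsg1a, Dsg1b and Dsg1c, whose separate calls are uncertain, 2 of 5 were higher and 1 lower. Ratios were above 1 for Dsg3, Dsc1 and Dsc3, forms of stratified epithelium, and below 1 for Dsg2 and Dsc2, the forms also found in simple epithelium and heart. Of the Dsg1 copies, also of stratified epithelium, Dsg1a and Dsg1b had ratios above 1 and Dsg1c one below 1. Dsg3, the antigen of pemphigus vulgaris, measured 3.36 and 14.1 CPM (ratio 4.19, 3.60 to 4.91). Dsc1, of the upper epidermis, measured 10.8 and 20.99 CPM (ratio 1.95, 1.77 to 2.15). Dsc3, of the lower layers, was at 17.9 and 26.2 CPM, and its ratio of 1.47 (1.36 to 1.59) lay just under the threshold.

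Dsg2 measured 105 and 81.4 CPM (ratio 0.778, 0.749 to 0.808), and Dsc2 measured 72.3 and 40.7 CPM (ratio 0.563, 0.535 to 0.592). Dsg2 was the most abundant desmoglein by RPKM in both libraries, at 72.1% and 53.9% of the desmoglein sum, while Dsg3 made up 3.22% and 13.003%. Dsc2 made up 73.8% and 49.0% of the desmocollin sum and Dsc1 10.2% and 23.5%. The summed RPKM was 19.9 and 20.7 for desmogleins and 16.6 and 14.1 for desmocollins.

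**Figure D3:**
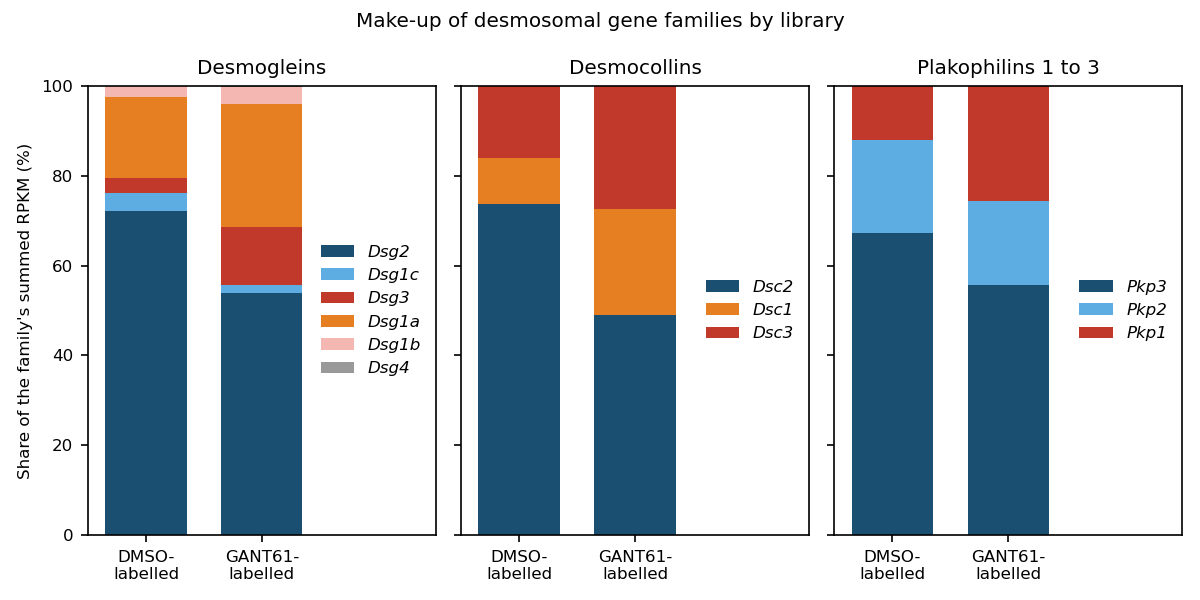
Share of the summed RPKM (percent, y axis) that each gene took within the desmogleins, the desmocollins and plakophilins 1 to 3, with 1 stacked bar per library. The shares of Dsg2 and Dsc2 are smaller in the GANT61-labelled library, at 53.9% and 49.0%, and those of Dsg3, Dsc1, Dsc3 and Pkp1 larger.

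The mouse has 3 near-identical Dsg1 copies, the antigens of pemphigus foliaceus, and their reads can be split between copies. The deposited counts of the copies were not whole, and each set summed to a whole number within 0.01 reads, 2093 in the DMSO-labelled and 2743 in the GANT61-labelled library. Taken apart, Dsg1a had a ratio of 1.56 (1.47 to 1.67), Dsg1b of 1.72 (1.45 to 2.04) and Dsg1c of 0.472 (0.374 to 0.590). Summed, they were at 33.4 and 48.3 CPM, a ratio of 1.44 (1.36 to 1.53), which was not called. The calls of the copies, in opposite directions, are uncertain. Counted as 1 gene, they leave 8 higher and 9 lower members.

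The 9 desmosomal cadherin genes lie side by side in 1 cluster on chromosome 18, and some neighbours there had unlike ratios. In the run of Dsg1a, Dsg1b, Dsg4 and Dsg3 all ratios were above 1, at 1.56, 1.72, 2.86 and 4.19, though the interval of Dsg4 included 1. Dsg3 and Dsg2 are 10.6 kb apart and had ratios of 4.19 and 0.778. Dsc2 lies between Dsc3 and Dsc1 and had a ratio below 1 where theirs were above it. Dsg4, a desmoglein of the hair shaft, had 2 and 6 reads.

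In the desmosomal plaque, Pkp1 was higher and the 5 other genes were not called. Pkp1, the plakophilin of stratified epithelium, on chromosome 1 at 135871395 to 135919207, measured 24.6 and 55.5 CPM (ratio 2.25, 2.12 to 2.40). Pkp2, which is found in simple epithelium and heart, measured 26.0 and 25.2 CPM (ratio 0.967, 0.900 to 1.04). Pkp3, of most epithelia, measured 89.4 and 78.9 CPM (ratio 0.883, 0.849 to 0.919). Of the summed RPKM of these plakophilins, Pkp1 made up 12.1% in the DMSO-labelled and 25.5% in the GANT61-labelled library.

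Desmoplakin and plakoglobin, which every desmosome uses, had ratios on opposite sides of 1 and were not called. Dsp, desmoplakin, which ties the plaque to keratin, measured 168 and 232 CPM (ratio 1.39, 1.35 to 1.42). Jup, plakoglobin, which serves desmosomes and adherens junctions, measured 214 and 171 CPM (ratio 0.798, 0.777 to 0.819). Pkp4, a relative of p120 catenin, measured 63.3 and 59.7 CPM (ratio 0.943, 0.901 to 0.988).

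Markers of basal and stratified epithelium stood beside the higher desmosomal members. Of 8 such markers, 7 were higher and 0 lower, with a median log2 ratio of 0.99, and a summed level of 866 and 1594 CPM. The basal keratin Krt5 had a ratio of 3.13 (3.04 to 3.22), Krt6a, a keratin of wounded and hair follicle epithelium, of 7.31 (6.48 to 8.29), and Trp63, the transcription factor of basal epithelium, of 2.04 (1.91 to 2.17). Krt14, the partner of Krt5, had a ratio of 1.32 (1.30 to 1.35). The part of such epithelium in the values of Dsg3, Cdh3, Dsc1, Pkp1 and Cldn1 was not tested.

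**Figure D4:**
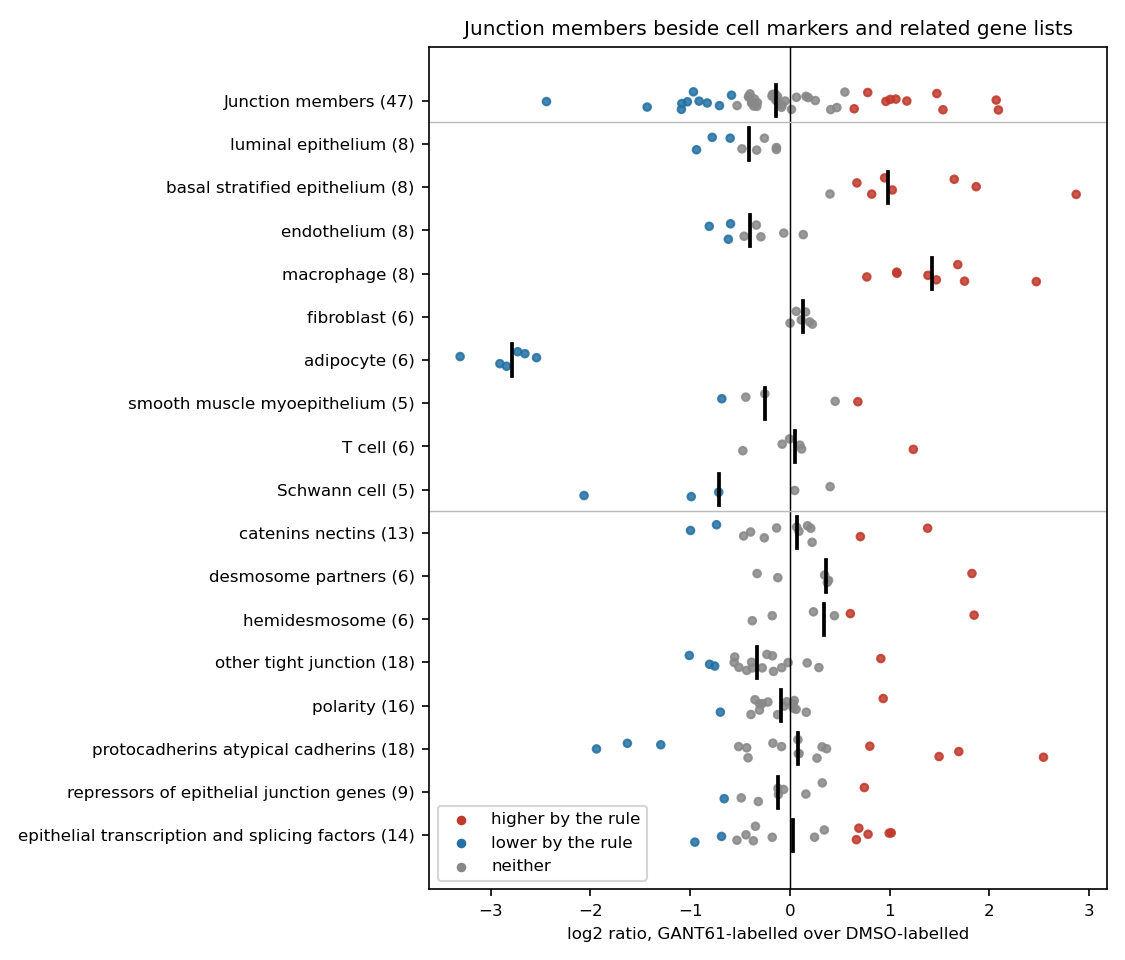
log2 ratio (x axis) of each gene with a mean of at least 1 CPM in the junction members, in 9 cell marker lists and in 8 related gene lists, with the number of genes in parentheses and a black bar at each median. The junction members spread to both sides of 0, with basal and stratified epithelial markers to the right (median 0.99) and luminal ones to the left (median -0.41).

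Counts in the lists of related junction genes stand beside the 24.4% called among all genes. In the list of desmosome partners, 1 of 6 was higher and 0 lower: Cdsn, corneodesmosin, which coats desmosomes of the cornified layer, measured 4.70 and 16.7 CPM (ratio 3.54, 3.11 to 4.06). Of 6 hemidesmosome genes, which fix basal cells to the basement membrane, 2 were higher and 0 lower. Col17a1, a transmembrane collagen, measured 16.7 and 59.95 CPM (ratio 3.60, 3.36 to 3.86), and Plec, plectin, had a ratio of 1.52 (1.49 to 1.56).

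Of 18 further tight junction genes, 3 were lower and 1 higher, with a median log2 ratio of -0.33. Jam2, a junctional adhesion molecule of endothelium, had a ratio of 0.497 (0.455 to 0.542), the scaffold Mpdz of 0.572 (0.532 to 0.615) and Amot, angiomotin, of 0.593 (0.534 to 0.657). The higher gene was Ildr1, of junctions where 3 cells meet, at 1.88 (1.62 to 2.19). Of 16 polarity genes, 1 was higher, Pard6g at 1.91 (1.68 to 2.18), and 1 lower, Lin7a at 0.617 (0.463 to 0.813).

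Catenins and nectins, which complete the adherens junction, had 2 of 13 higher and 2 lower. Nectin1 had a ratio of 1.63 (1.51 to 1.76) and Nectin3, which binds it, of 0.501 (0.453 to 0.554). The catenin relatives Ctnnd2 and Arvcf had ratios of 2.60 (1.89 to 3.68) and 0.601 (0.542 to 0.664). Ctnnd2 was at 0.847 and 2.22 CPM and reached a mean of 1 CPM only through the GANT61-labelled library.

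Transcription factors that set junction genes gave calls in both directions. Of 9 repressors of epithelial junction genes, 1 was higher and 1 lower. Zeb2, which represses Cdh1 and is also expressed in macrophages, measured 108 and 181 CPM (ratio 1.68, 1.63 to 1.73). Twist1 had a ratio of 0.634 (0.583 to 0.688). Of 14 epithelial factors, 5 were higher and 2 lower. Klf4, a factor of the skin barrier also expressed in macrophages, had a ratio of 1.61 (1.54 to 1.70) and Ehf of 1.99 (1.85 to 2.15), while Elf3 had one of 0.622 (0.597 to 0.647) and Tfap2a one of 0.517 (0.483 to 0.552).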

How the data were processed

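RNA was sequenced from 2 libraries, 1 per group. Expected counts per gene, not scaled between libraries, and RPKM values were deposited by the authors in separate tables with a column for each library. Per the submitters' processing notes, the tools included Partek, SAMtools, STAR, cutadapt and HISAT2, with mm10 and hg19 as builds. Roles, versions, the counter, the annotation and the strand setting are not given in the sources used here. Columns were tied to libraries by the treatment in their names, since the numbers in column names and sample titles did not match. The expected counts were rounded to whole numbers and scaled by TMM (edgeR 4.0.16, R 4.3.3). Ratios had a prior count of 0.5 per library and exact 95% Clopper-Pearson intervals (scipy 1.17.1). The ratio code was tested on simulated data. Gene positions are from GENCODE M21 (mm10). The files were fitted whole, and only the junction genes are printed. Members and lists were chosen with earlier results of these data known. Every member with a mean of at least 1 CPM was to be described by role; 1 of them enters the counts but is not reported here. Up to 4 called genes of each related list were named, by level. Alternatives were 3 other scalings, including DESeq2 1.42.0 size factors, RPKM ratios, another prior count, other floors, another fold and removal of the gene length trend. A count of 0 allows up to 3 reads, 0.0479 CPM (DMSO) and 0.0528 CPM (GANT61). Neither the intervals nor this limit cover more than counting error, as reads were not tied to molecules.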

Additional observations from a re-analysis of the deposited data

How the results depend on the processing

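The counts of 10 higher and 10 lower members were the same under 3 other scalings (DESeq2 size factors, library totals and upper quartile). With a mean of at least 5 CPM required, 7 were higher and 4 lower, 32.4% of 34 members beside 20.1% of all 11810 genes. With a fold of 2, 7 were higher and 5 lower, 25.5% of 47 members beside 11.2% of all 13939 genes. Over all genes, the fold of 2 left 972 higher and 595 lower, against 1972 and 1436. With the 3 Dsg1 copies summed, an alternative chosen after seeing the data, 8 members were higher and 9 lower. Of the 20 called members, 0 changed sign under any alternative run. This outcome was near certain, as floors and fold leave ratios unchanged and the other settings moved them little. With RPKM ratios and a mean of at least 1 RPKM, 8 of 38 members were higher and 7 lower. That was 39.5% called, beside 21.5% of all 12347 genes. Cdh6, Cldn8, Cldn9, Dsg1b and Dsg1c were not called there because they averaged under 1 RPKM, with ratios still past the threshold. Under the other scalings, the prior count of 2 and removal of the length trend, 18 of the 20 kept their call. The exceptions were Ocln (0.667 with the prior count of 2) and Dsg1a (1.49 without the length trend). The members' median log2 ratio ranged from -0.19 with library totals to -0.14. Depth limits the members under 1 CPM, of which 21 were not open to a call. No paired analysis was possible because each group had 1 library.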

Other observations

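Atypical cadherins and protocadherins, relatives of the junction cadherins that act in planar polarity and in the nervous system, gave calls in both directions. By the rule, 4 of 18 that averaged 1 CPM or more were higher in the GANT61-labelled library and 3 lower, with a median log2 ratio of 0.08. Among all genes at this level, 24.4% were called. The higher Celsr3 and Cdhr1 and the lower Pcdh17 and Pcdh20 reached this level only through the library where they were high. Fat2, an atypical cadherin that guides migrating epithelial cells, measured 4.89 and 28.5 CPM (ratio 5.82, 5.16 to 6.61). Celsr2, of planar polarity, measured 11.03 and 19.2 CPM (ratio 1.74, 1.58 to 1.92). Clstn3, a calsyntenin, measured 4.41 and 1.14 CPM (ratio 0.261, 0.195 to 0.341). Cdhr1, a photoreceptor cadherin, measured 0.719 and 2.04 CPM (ratio 2.82, 1.996 to 4.10).

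Schwann cell markers stood beside Cldn19, a claudin of Schwann cell myelin, which had 17 and 2 reads. Of 5 such markers, 3 were lower and 0 higher, beside 10.3% lower and 14.1% higher among all genes. Their summed level was 75.7 and 67.8 CPM, of which Mbp (ratio 1.03, 0.984 to 1.09) made up 52.6 and 54.4 CPM. Sox10 also had a ratio above 1 (1.32, 1.15 to 1.53). The part of Schwann cell content in the Cldn19 value was not tested. Cdh19, a cadherin of Schwann cells and their precursors, had 54 and 37 reads and a ratio of 0.758 (0.483 to 1.17), an interval that includes 1.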
